A study of Mus musculus with 2 samples.

Results

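The 45 genes described here mark the white blood cells of the embryonic kidney: the leukocytes as a whole, resident macrophages, monocytes and neutrophils, mast cells and lymphocytes, together with 3 ligands that bind macrophage receptors. They were listed by symbol for their cell type and matched by stable gene identifier, and all 45 were found among the 43346 mouse genes of both gene tables. The groups hold 2 leukocyte-wide, 24 macrophage, 3 ligand, 6 monocyte and neutrophil, 3 mast cell and 7 lymphoid genes. The kidneys came from healthy B6NCrl mouse embryos at 16.5 days of development, and their total RNA was sequenced in 2 libraries, replicate 1 and replicate 2. Each library is a biological replicate made from pooled embryos of both sexes. Replicate 2 pooled 41 embryos, and the sources used here do not give the size of the other pool. With 1 tissue at 1 age and no treatment, genes were compared within the kidney and between the pools.

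Macrophages enter the kidney early in embryonic life, from precursors that arise in the yolk sac and later in the fetal liver, and settle between the growing tubules and vessels. Their survival depends on Csf1r, a receptor tyrosine kinase with the ligands Csf1 and Il34, and their identity on transcription factors such as Spi1 (PU.1), Irf8 and Maf. Monocytes and neutrophils arrive through the blood, mast cells mature from progenitors that carry Kit, and T and B lymphocytes are forming in thymus and fetal liver by this stage.

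Levels are given in TPM, a measure of transcript abundance scaled to transcript length and to the library, so that different genes can be set side by side. A gene is called detected when it reached 1 TPM in both libraries. Mouse genes received 34261328 estimated counts in replicate 1 and 37900132 in replicate 2. A count of 0 allows up to 3 counts, which equal 0.0876 CPM (counts scaled to the library's total) in replicate 1 and 0.0792 CPM in replicate 2. All 9 genes of kidney epithelium and stroma used to check the tissue were detected, with a median of 62.3 TPM. Markers of other tissues and cells were present too. The 7 liver genes were all detected, with a median of 14.0 TPM, as were 7 of 10 red cell genes, led by Hba-a1 at 3590 ± 107 TPM (SD, n = 2). In bulk tissue, fewer cells of a type and less RNA per cell cannot be told apart.

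Most macrophage genes were detected, and most lymphoid genes were near 0. Of the 45 genes, 33 were detected (73.3%), against 62.2% of all 21474 protein-coding genes and 34.7% of all mouse genes. The macrophage group had 21 of 24 genes detected (87.5%), the monocyte and neutrophil group 3 of 6, the mast cell group 2 of 3 (66.7%) and the lymphoid group 2 of 7 (28.6%). Both leukocyte-wide genes and all 3 ligands were detected. The shares follow from how the genes were listed and carry no test.

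Median levels ran in a similar order. The median mean level was 11.9 TPM over the leukocyte-wide pair, 7.62 TPM over the ligands, 4.73 TPM over the macrophage genes, 1.90 TPM over the mast cell genes, 1.30 TPM over the monocyte and neutrophil genes and 0.160 TPM over the lymphoid genes. All protein-coding genes had a median of 5.50 TPM, so the median macrophage gene lay just under the median protein-coding gene of the whole kidney. As a difference of median log2(TPM + 0.1), the lymphoid group lay 4.20 log2 units under the macrophage group (log2 difference -4.20), with -3.99 in replicate 1 and -3.82 in replicate 2. The gene at the lymphoid median changed between the libraries, and that median was 0.220 TPM in each library but 0.160 TPM over the means. It rests on a few counts, and adding 1 or 0.01 TPM in place of 0.1 gave differences of -2.29 and -4.78. The monocyte and neutrophil group differed from the macrophage group by -1.80, with -1.86 and -1.72 in the single libraries, but by 0.54 when genes under 1 TPM were left out of both groups. S100a8 and S100a9 are 2 of the 3 genes then left in the smaller group. The mast cell group differed by -1.25, the ligands by 0.69 and the leukocyte-wide pair by 0.98.

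**Figure D1:**
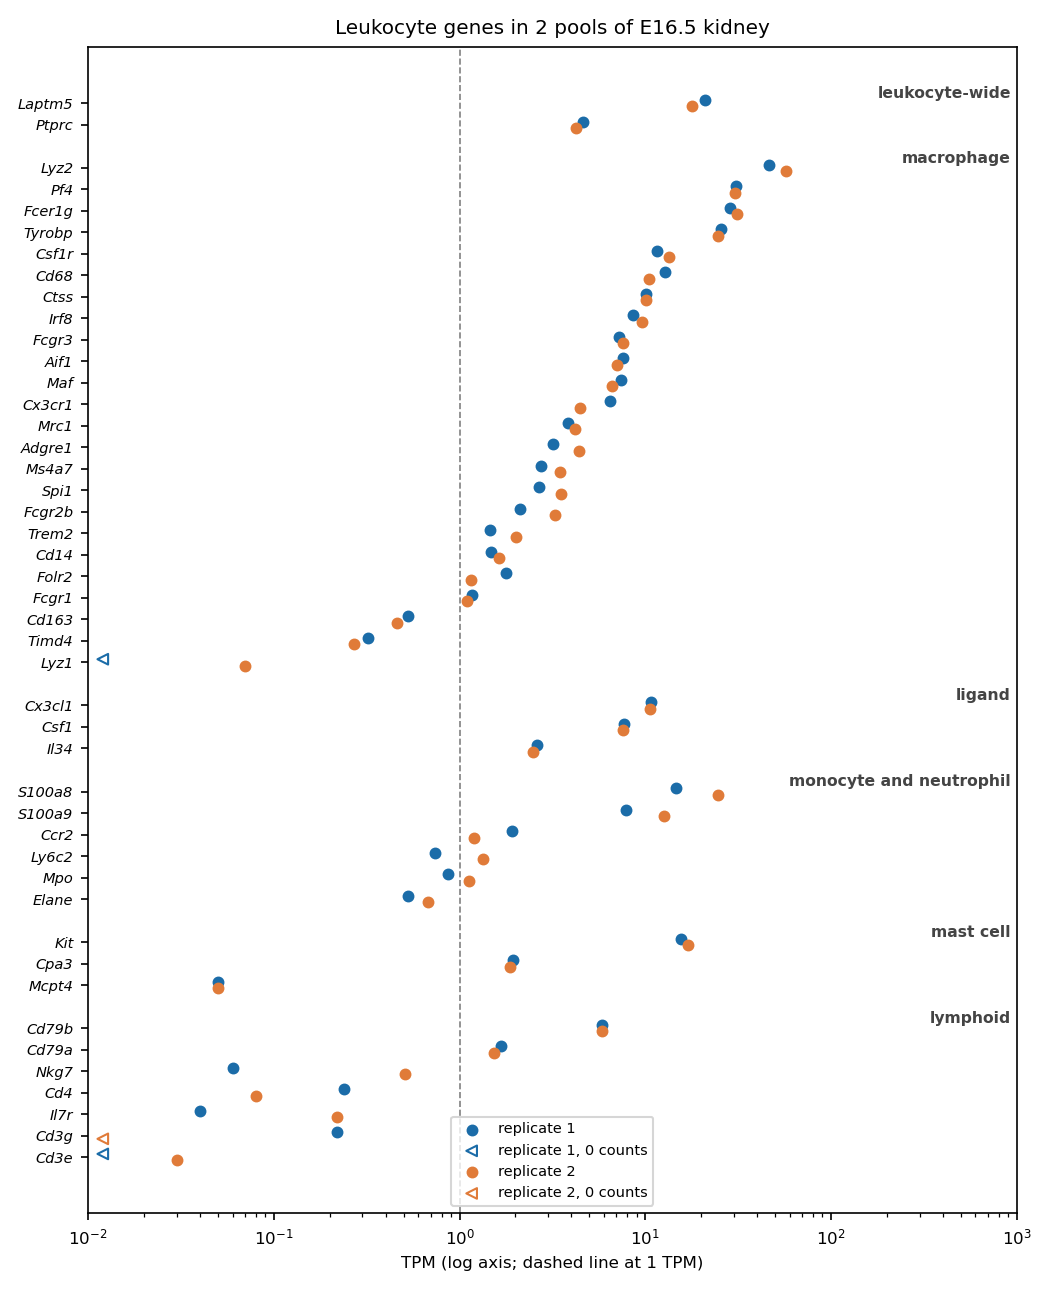
TPM of each of the 45 genes in replicate 1 (blue) and replicate 2 (orange) on a log axis, by group, with open triangles at the left edge for 0 counts and a dashed line at 1 TPM. All but 3 of the 24 macrophage genes lie right of the line in both libraries, and 5 of the 7 lymphoid genes lie left of it in both.

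Both leukocyte-wide genes were well above the line. Laptm5, a lysosomal membrane protein of blood cells, had 20.99 TPM in replicate 1 and 17.89 TPM in replicate 2. Ptprc, which encodes the pan-leukocyte phosphatase CD45, had 4.62 and 4.22 TPM. The level of Laptm5 was 4.39 ± 0.215 times that of Ptprc (SD, n = 2), so the leukocyte-wide pair did not share 1 level.

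Among the macrophage genes the highest levels belonged to a secreted enzyme, a chemokine and a pair of signalling adaptors. Lyz2, the lysozyme of macrophages and other myeloid cells, had 46.13 TPM in replicate 1 and 57.29 TPM in replicate 2, which placed its mean of 51.7 ± 7.89 TPM at percentile 84.2 of protein-coding genes. Pf4, a chemokine stored in platelets and also transcribed by fetal macrophages, had 30.94 and 30.39 TPM. Fcer1g, the common signalling chain of Fc receptors, had 28.68 and 31.22 TPM. Tyrobp (DAP12), the adaptor of Trem2 and related receptors, had 25.66 and 24.67 TPM. The ranges of Pf4 and Fcer1g overlap, so their order is not resolved by these libraries.

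Receptors on the macrophage surface spanned a wide range. Csf1r had 11.56 TPM in replicate 1 and 13.46 TPM in replicate 2, the highest level among the surface receptors of the group. Cx3cr1, the receptor for the membrane-bound chemokine Cx3cl1, had 6.47 and 4.43 TPM. Adgre1, a surface antigen commonly used to stain tissue macrophages, had 3.20 and 4.38 TPM. Cx3cr1 was thus above Adgre1 in both libraries, by a margin that was small in replicate 2. Mrc1, the mannose receptor CD206, had 3.83 and 4.19 TPM. Ms4a7, a membrane protein of tissue macrophages, had 2.73 and 3.46 TPM. These receptors all cleared the detection line by a factor above the difference between the libraries.

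Trem2, a lipid-sensing receptor that signals through Tyrobp, had 1.46 TPM in replicate 1 and 2.02 TPM in replicate 2. Folr2, the folate receptor β of resident macrophages, had 1.78 and 1.15 TPM, and Cd14, the co-receptor for bacterial lipopolysaccharide, had 1.48 and 1.63 TPM. All 3 lay close to the detection line. The receptors Cd163, a scavenger of haemoglobin, and Timd4, a receptor for dying cells that marks long-lived resident macrophages in several adult tissues, stayed below it. Cd163 had 0.53 and 0.46 TPM from 53 and 49 counts, and Timd4 had 0.32 and 0.27 TPM from 15 and 14 counts. Counts of this size are above 0 in both libraries, so these transcripts were present at a low level. The level of Mrc1 was 8.17 ± 1.33 times that of Cd163.

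The Fc receptors for immunoglobulin G were also unequal. Fcgr3, an activating receptor that needs Fcer1g, had 7.21 TPM in replicate 1 and 7.57 TPM in replicate 2. Fcgr2b, the inhibitory receptor, had 2.11 and 3.28 TPM, and Fcgr1, the high-affinity receptor, had 1.17 and 1.10 TPM. The 3 receptors kept the order Fcgr3, Fcgr2b, Fcgr1 in both libraries. Fcer1g exceeded Fcgr3 by a factor of 4.05 ± 0.103, and Fcgr3 exceeded Fcgr2b by 2.86 ± 0.784. The coding sequences of Fcgr3 and Fcgr2b are 75.7% identical over their alignment, and neither gene had a whole count in these tables, which means that some reads were divided between genes.

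The 3 transcription factors were all detected. Irf8, which specifies macrophages and other mononuclear phagocytes, had 8.61 TPM in replicate 1 and 9.61 TPM in replicate 2. Maf had 7.37 and 6.61 TPM, and it is also transcribed in kidney epithelium, so its level is not that of macrophages alone. Spi1, the master regulator of the myeloid lineage, had 2.68 and 3.50 TPM. The level of Irf8 was 2.98 ± 0.330 times that of Spi1.

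Genes of lysosomes and the cytoskeleton completed the group. Cd68, a lysosomal glycoprotein of macrophages, had 12.78 TPM in replicate 1 and 10.51 TPM in replicate 2. Ctss, the lysosomal protease cathepsin S, had 10.13 and 10.12 TPM. Aif1, the actin-binding protein IBA1, had 7.58 and 7.03 TPM. Their order as whole genes, Cd68, Ctss, Aif1, was the same in both libraries, by a narrow margin between the first pair in replicate 2. A noncoding transcript, Cd68-203, took 40.95% of Cd68 in replicate 1 and 41.54% in replicate 2. The main coding transcript, Cd68-201, had 7.25 and 6.14 TPM, under Ctss in both libraries.

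Lyz1 was the exception among the macrophage genes, with 0 counts in replicate 1 and 2.04 estimated counts (0.07 TPM) in replicate 2. The count of 0 allows up to 0.112 TPM. Lyz1 encodes the lysozyme of intestinal Paneth cells and is the neighbour of Lyz2: it lies at chr10:117287797-117292868 on the minus strand and Lyz2 at chr10:117277331-117282321 on the same strand (GRCm38). The coding sequences, 444 bases each without the stop codon, differ at 22 bases, and the whole transcripts at 51 bases and in 55 gap positions of their alignment, so a read that covers none of these fits both copies. The first 300 coding bases of both, read from the reference annotation, are printed to show how the differing bases, in capitals, are spaced. The window holds 20 of the 22.
Lyz2: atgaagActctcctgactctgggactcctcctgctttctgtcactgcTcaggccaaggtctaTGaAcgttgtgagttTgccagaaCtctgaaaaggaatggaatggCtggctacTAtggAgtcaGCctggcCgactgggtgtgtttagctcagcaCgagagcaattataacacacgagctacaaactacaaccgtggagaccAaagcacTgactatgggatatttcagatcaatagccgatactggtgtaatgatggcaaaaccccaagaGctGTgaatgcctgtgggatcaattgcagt
Lyz1: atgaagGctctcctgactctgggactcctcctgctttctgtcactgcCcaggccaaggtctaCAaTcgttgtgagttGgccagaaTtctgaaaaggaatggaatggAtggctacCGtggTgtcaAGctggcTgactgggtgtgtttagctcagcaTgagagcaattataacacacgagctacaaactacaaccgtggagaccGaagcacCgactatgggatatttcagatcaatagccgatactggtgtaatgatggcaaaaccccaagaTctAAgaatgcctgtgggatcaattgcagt

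A total of 1236 counts went to Lyz2 in replicate 1 and 1666.96 in replicate 2. In replicate 2, where Lyz1 received 2.04 counts and neither number is whole, at least some reads were shared by both copies. The exact level of Lyz1 is therefore uncertain, but its deposited upper TPM bounds, 0.111 in replicate 1 and 0.219 in replicate 2, lay under the detection line. The other 23 macrophage genes had a median of 5.45 TPM, against 4.73 TPM with Lyz1 included.

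Of the ligands, Cx3cl1 was above its receptor in both libraries, and Csf1 and Il34 were each below Csf1r. Cx3cl1 (fractalkine), the ligand of Cx3cr1, had 10.81 TPM in replicate 1 and 10.61 TPM in replicate 2. Csf1 had 7.64 and 7.6 TPM, and Il34 had 2.61 and 2.50 TPM. Both ligands of Csf1r were present, and Csf1 exceeded Il34 by a factor of 2.98 ± 0.0798 (SD, n = 2). The level of Csf1r was 1.64 ± 0.182 times that of Csf1, and Cx3cl1 was 2.03 ± 0.512 times as abundant as Cx3cr1. Exons of Il34, Csf1r and Cx3cr1 overlap genes on the opposite strand. Since the sources used here do not say whether counting used strand, the levels of Il34, Csf1r and Cx3cr1 may include reads of those genes. The ratios that use these levels share that limit.

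The monocyte and neutrophil group was led by 2 alarmin genes that neutrophils and monocytes carry at very high levels. S100a8 had 14.72 TPM in replicate 1 and 24.78 TPM in replicate 2, and S100a9, its dimer partner, had 7.85 and 12.59 TPM. The pair kept nearly the same proportion in both pools, with S100a8 at 1.92 ± 0.0658 times S100a9. Ccr2, the chemokine receptor of inflammatory monocytes, had 1.91 and 1.20 TPM. Ly6c2, a surface antigen of the same monocytes, had 0.74 and 1.33 TPM, on either side of the detection line. Mpo, the myeloperoxidase of neutrophil granules, had 0.87 and 1.13 TPM and likewise crossed it. Elane, neutrophil elastase, had 0.53 and 0.68 TPM from 10 and 14 counts. Mpo and Elane thus had means of 1.00 and 0.605 TPM, while the alarmin pair was over 5 TPM in both pools. Prtn3, another granule protease of immature neutrophils and no member of the group, was higher than both enzymes at 6.70 ± 0.0212 TPM.

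Among the 3 mast cell genes only Kit was abundant. Kit, the receptor for stem cell factor, had 15.63 TPM in replicate 1 and 17.01 TPM in replicate 2, and it is also carried by blood progenitors and other cells, so it does not mark mast cells alone. Cpa3, the carboxypeptidase of mast cell granules and of some progenitors, had 1.94 and 1.87 TPM. Mcpt4, a protease of mature connective tissue mast cells, had 0.05 TPM and 1 count in each library. Kit exceeded Cpa3 by a factor of 8.58 ± 0.735. The difference of the mast cell group from the macrophage group was -1.25 with all members and -2.91 when Kit, Maf, Lyz1 and Cd68 were left out.

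The lymphoid group split into B lineage genes that were detected and T and NK cell genes that were not. Cd79b and Cd79a encode the signalling chains of the B cell receptor. Cd79b had 5.88 TPM in replicate 1 and 5.83 TPM in replicate 2, and Cd79a had 1.67 and 1.54 TPM. The chains were not at the same level, since Cd79b exceeded Cd79a by a factor of 3.65 ± 0.187. Il7r, the interleukin 7 receptor of lymphoid progenitors, had 0.04 and 0.22 TPM from 3 and 17 counts. Cd4, a co-receptor of helper T cells that some macrophages also carry, had 0.24 and 0.08 TPM from 11 and 6 counts. The deposited upper TPM bounds of Cd4 were 1.42 in replicate 1 and 0.971 in replicate 2. Nkg7, a granule protein of NK and cytotoxic T cells, had 0.06 and 0.51 TPM from 1 and 10 counts.

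The CD3 chains of the T cell receptor were at the limit of what these libraries can show. Cd3e had 0 counts in replicate 1, which allows up to 0.0977 TPM, and 1 count (0.03 TPM) in replicate 2. Cd3g had 1 count (0.22 TPM) in replicate 1 and 0 in replicate 2, which allows up to 0.252 TPM by counting error alone. The deposited upper TPM bounds of Cd3g were wider, 1.24 in replicate 1, over the detection line, and 0.839 in replicate 2. The counts of Cd3e and Cd3g do not show that T cells were absent. The single Cd3g count fell on a retained-intron transcript, Cd3g-202, and the coding Cd3g-201 had 0 counts in both libraries. Trac, the α constant segment of the T cell receptor and no member of the group, was detected with 3.19 TPM (23 counts) in replicate 1 and 3.70 TPM (29 counts) in replicate 2.

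Further genes of the same cell types gave a similar order. These lists were written with earlier results of these data known, so they are no independent support for it. Of 30 further macrophage genes 21 were detected (70.0%), with a median of 3.73 TPM. Among all protein-coding genes 62.2% were detected, with a median of 5.50 TPM. The further macrophage genes were led by Lgmn, a lysosomal protease that kidney tubules also make, with 125.29 TPM in replicate 1 and 146.73 TPM in replicate 2. Hmox1, haem oxygenase, had 41.24 and 47.34 TPM. Neither of these genes is particular to macrophages, since many cells share them. Of 18 further monocyte and neutrophil genes 7 were detected, with a median of 0.955 TPM, and Ctsg, a neutrophil granule protease, had 0 counts in both libraries. The 3 highest were Plac8 at 74.3 ± 3.56 TPM, F13a1 (coagulation factor XIII A) at 9.38 ± 1.01 TPM and Prtn3 (proteinase 3), whose value is given above.

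Of 12 further mast cell and basophil genes 7 were detected, with a median of 1.76 TPM. Hdc, the histamine-forming enzyme, which other cells make too, stood far above the others with 103.53 TPM in replicate 1 and 108.52 TPM in replicate 2, a level that the mast cell proteases did not approach. Gata2, a transcription factor shared with progenitors and endothelium, averaged 30.1 ± 1.32 TPM, and Slc18a2, a transporter that loads amines into granules, averaged 7.33 ± 0.919 TPM. Of 18 further T and NK cell genes 3 were detected, with a median of 0.145 TPM. These were Lck, a T cell kinase, at 9.94 ± 1.46 TPM, Thy1, which stromal cells also carry, at 4.95 ± 0.339 TPM, and Trac at 3.44 ± 0.361 TPM. Of 12 further B cell genes 4 were detected, with a median of 0.145 TPM. Ebf1, which stromal cells also use, averaged 20.8 ± 0.905 TPM, Blnk 16.6 ± 0.665 TPM and Ighm, the immunoglobulin μ chain, 2.71 ± 0.240 TPM. Ms4a1 (CD20) and Pax5, also on this B cell list, had 0 counts in both libraries.

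Pf4 is shared by macrophages and platelets, so platelet genes were set beside it. Of 10 megakaryocyte and platelet genes 5 were detected, with a median of 1.29 TPM, and the highest was Itga2b, the platelet integrin chain αIIb, with 8.36 TPM in replicate 1 and 9.08 TPM in replicate 2. Ppbp, a chemokine stored with Pf4 in platelet granules and chosen here after its values were seen, had 1.6 and 1.31 TPM. Pf4 exceeded Ppbp by a factor of 21.3 ± 2.73. The part of platelet precursors in the level of Pf4 was not tested.

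**Figure D2:**
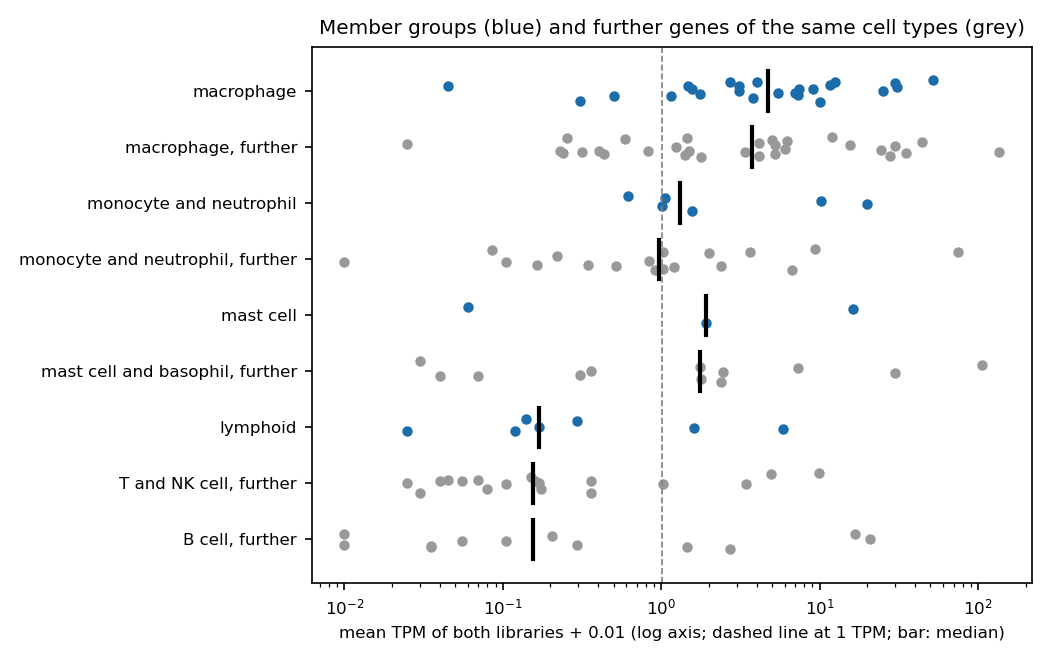
Mean TPM of both libraries plus 0.01, on a log axis, for the genes of 4 member groups (blue) and for further genes of the same cell types (grey), 1 point per gene, with black bars at the medians and a dashed line at 1 TPM. Both macrophage rows have their median above 1 TPM (4.73 and 3.73 TPM before the offset), and the lymphoid rows have theirs near 0.15 TPM with a few genes above 1 TPM.

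The pools agreed closely for most of these genes. Counts were scaled with the TMM method, and the ratio of replicate 1 over replicate 2 was taken for the 34 members with a mean of at least 1 CPM. None of the 34 was over 2-fold apart, against 2.32% of the 15362 genes that passed the same filter, and their median log2 ratio was -0.07, against -0.01 over all genes. The members' log2 ratios ranged from -0.74 to 0.68. With 1 library a pool there is no test of these ratios, and the intervals given cover counting error only. Without the filter, Nkg7 and Il7r passed 2-fold with log2 ratios of -1.93 and -1.84, on the few counts given above.

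At a limit of 1.5-fold, 3 of the 34 members were apart, all in the monocyte and neutrophil group. S100a8 and S100a9 were lower in replicate 1, against 2.06% of all genes in that direction. The ratio of replicate 1 over replicate 2 was 0.594 for S100a8 (99 and 181 counts, exact 95% interval 0.460 to 0.763) and 0.626 for S100a9 (75 and 130 counts, 0.465 to 0.839). Ccr2 was higher in replicate 1, against 3.76% of all genes in that direction, with a ratio of 1.62 (137.27 and 91.82 counts, 1.23 to 2.13). The single group thus held ratios on both sides, and its summed level was 26.6 TPM in replicate 1 and 41.7 TPM in replicate 2. Among the 21 macrophage genes past the filter none was over 1.5-fold apart, and the widest ratios were those of Fcgr2b, with a log2 ratio of -0.55, and Cx3cr1, with 0.52. Folr2, a detected macrophage gene just under the filter at a mean of 0.951 CPM, had a ratio of 1.55 (40 and 28 counts, 0.933 to 2.61). The summed level of the macrophage genes was 224 TPM in replicate 1 and 238 TPM in replicate 2.

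Of the 18 further monocyte and neutrophil genes 8 passed the filter, none was over 1.5-fold apart in either direction, and their median log2 ratio was -0.18, with a range of -0.54 to 0.38. Over all 18, with no filter, the interval of counting error lay to 1 side of equality for 4 genes, Retnlg, Ngp, Mmp8 and F13a1, each lower in replicate 1. Of these, named after their values were seen, Mmp8 had a log2 ratio of -1.30 (15 and 43 counts) and Retnlg -1.56 (5 and 20 counts). Ngp had -0.54 (71 and 113 counts) and F13a1 -0.22 (751 and 950 counts). Mmp8, Retnlg and Ngp are genes of neutrophils. Prtn3 was near equality at 0.02 (112 and 120 counts). Camp and Ltf were below 0, at -0.69 (17 and 31 counts) and -0.33 (64 and 88 counts), with intervals that included equality. Cebpe and Ms4a3 were above 0, at 1.06 (4 and 1 counts) and 0.46 (2 and 1 counts), on too few counts to give a direction. Camp, Ltf, Cebpe and Ms4a3 were also named after their values were seen. None of the 7 liver genes was over 1.5-fold apart, but their log2 ratios of replicate 1 over replicate 2 were all below 0, from -0.53 to -0.13 with a median of -0.40, and their summed level was 161 TPM in replicate 1 and 201 TPM in replicate 2. Among them, Afp had 96.71 and 114.05 TPM, Apoa2 18.33 and 26.93 TPM, and Alb 12.70 and 17.25 TPM. The 6 antigen presentation genes ran from -0.47 to -0.09 with a median of -0.25, and the 4 megakaryocyte and platelet genes that passed had a median of -0.38 with 1 gene over 1.5-fold lower in replicate 1. The 9 red cell genes that passed had a median of 0.06. The part of liver tissue, of platelets or of blood in the ratios of S100a8 and S100a9 was not tested. The lymphoid pair that passed, Cd79a and Cd79b, had log2 ratios of 0.11 and -0.06, and the mast cell pair, Kit and Cpa3, -0.14 and 0.05.

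**Figure D3:**
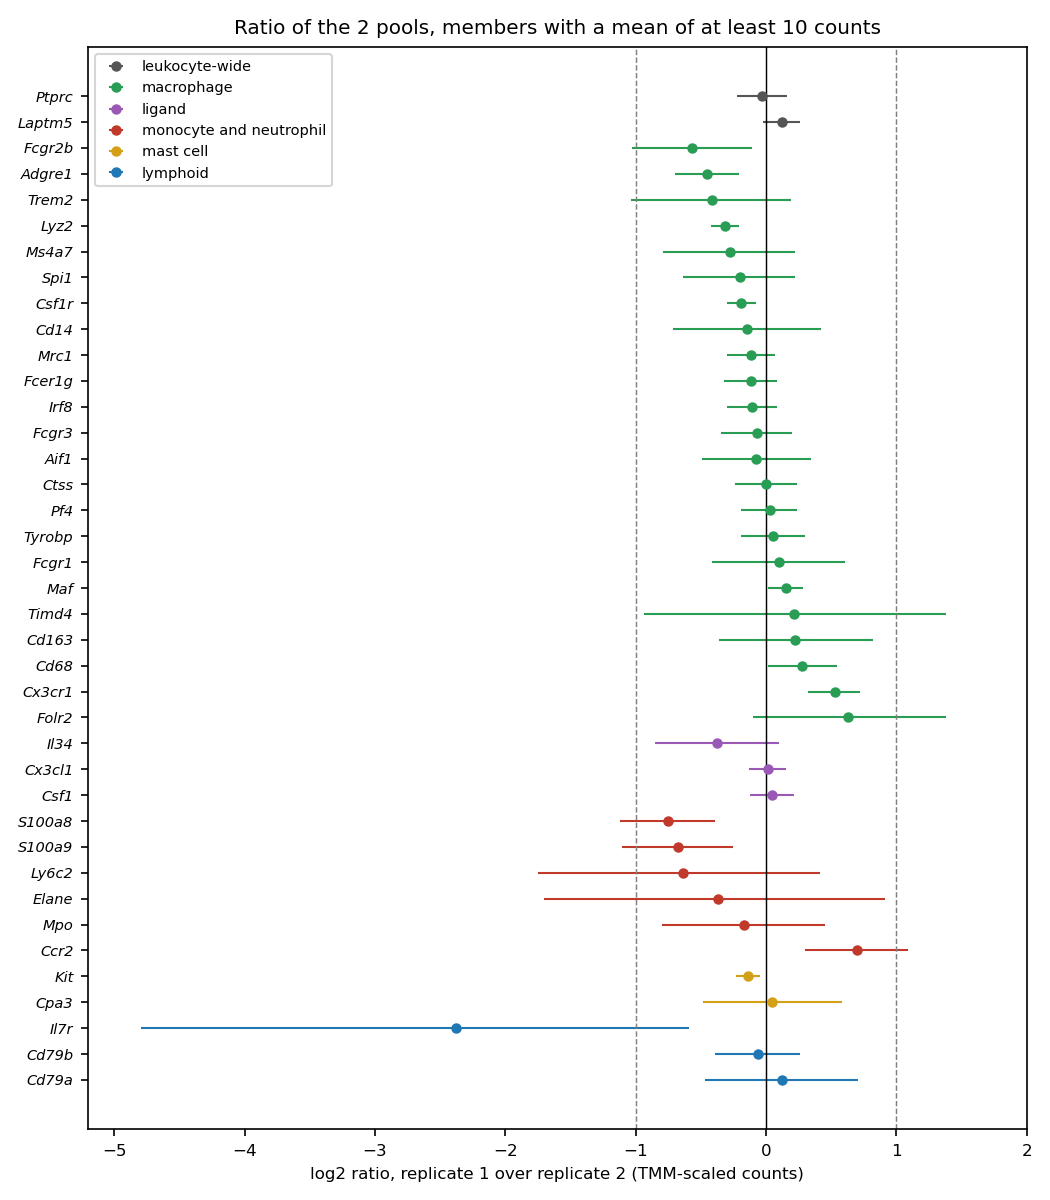
Log2 ratio of TMM-scaled counts, replicate 1 over replicate 2, without a prior count, for the 39 members with a mean of at least 10 counts, coloured by group, with bars for the exact 95% interval of counting error and dashed lines at 2-fold. S100a8 and S100a9 lie left of 0 and Ccr2 right of it with intervals clear of 0. Intervals of several macrophage genes are clear of 0 too, such as Adgre1, Fcgr2b and Lyz2 on the left and Cx3cr1 on the right. Il7r, at 3 and 17 counts, lies left of 0 with the widest interval.

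Transcript forms were compared through the share that each annotated transcript took of its gene. Of the 33 detected members, 25 have at least 2 annotated transcripts and 8 have 1. The same transcript led in both libraries for 20 of the 25 and differed for 5 (Ptprc, Trem2, Aif1, Csf1 and Ccr2), against 8.48% of 10194 detected genes of that kind. When the leading transcript was taken from estimated counts or from the posterior mean TPM, it differed for 3, namely Ptprc, Trem2 and Ccr2.

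Kit showed a stable mixture of 2 coding forms that differ by a short stretch near the membrane, a splice choice known to tune how the receptor signals. Kit-204 took 58.71% of Kit transcripts in replicate 1 and 58.26% in replicate 2, and Kit-201 took 37.47% and 38.98%. The coding sequence of Kit-201 has 2937 bases and that of Kit-204 has 2925, and the 12 bases that differ are coding bases 1538 to 1549 of Kit-201. Kit lies at chr5:75574916-75656722 on the plus strand (GRCm38). The lines give that stretch with its neighbouring coding bases, with the additional bases in capitals.
Kit-201: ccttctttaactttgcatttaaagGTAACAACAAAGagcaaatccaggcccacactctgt
Kit-204: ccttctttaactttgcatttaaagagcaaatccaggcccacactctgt

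Csf1 was divided between a long and a short coding form, and the long form had the larger share in both libraries. Csf1-201, with 1656 coding bases, took 47.37% in replicate 1 and 42.33% in replicate 2. Csf1-202 lacks 885 of those bases, has 771 and took 42.90% and 43.20%. The long form is known to give a secreted protein and the short form one that stays on the cell surface. Csf1-203 has the same coding sequence as Csf1-201, and together they took 50.2% in replicate 1 and 51.6% in replicate 2. The change of leading transcript is therefore not a change of leading coding form.

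Fcgr2b, which B cells and macrophages are known to splice differently, was led by the shorter of its main coding forms in both libraries. Fcgr2b-202, with 879 coding bases, took 66.27% in replicate 1 and 51.12% in replicate 2. Fcgr2b-204, which carries 141 more bases, took 16.57% and 14.26%. In the lymphocyte form such an insert lies in the cytoplasmic tail, and the myeloid form lacks it. These shares rest on 66.44 and 105.82 counts over the whole gene.

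Ptprc has variable exons in its outer part whose inclusion differs between leukocyte types. Ptprc-203, with 3462 coding bases, took 51.33% of Ptprc transcripts in replicate 1 and 18.64% in replicate 2, and Ptprc-204, with 3390, took 16.03% and 51.10%. Ptprc-203 lacks coding bases 97 to 513 of the longest form, Ptprc-207, and Ptprc-204 lacks a further 72, while Ptprc-207 itself took 0% and 1.59%. The libraries thus disagreed on which short form led while both put the longest form near 0. The gene had 431 counts in replicate 1 and 477 in replicate 2.

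The other members whose leading form differed were Trem2, Ccr2 and Aif1. Trem2-201 took 94.41% in replicate 1 and 15.02% in replicate 2, and Trem2-202 took 0% and 56.71%, on 40 and 58 counts for the gene. Ccr2-201 took 74.85% and 28.01% and Ccr2-202 3.82% and 51.80%, with the same coding sequence of 1119 bases. For Aif1, on 92 and 105 counts, the retained-intron transcript Aif1-205 took 56.34% and 37.97%, and the coding Aif1-203 took 43.66% and 62.03%. Csf1r was led by Csf1r-202 with 95.55% and 83.95%, and Csf1r-201, which has the same coding sequence, took the rest.

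**Figure D4:**
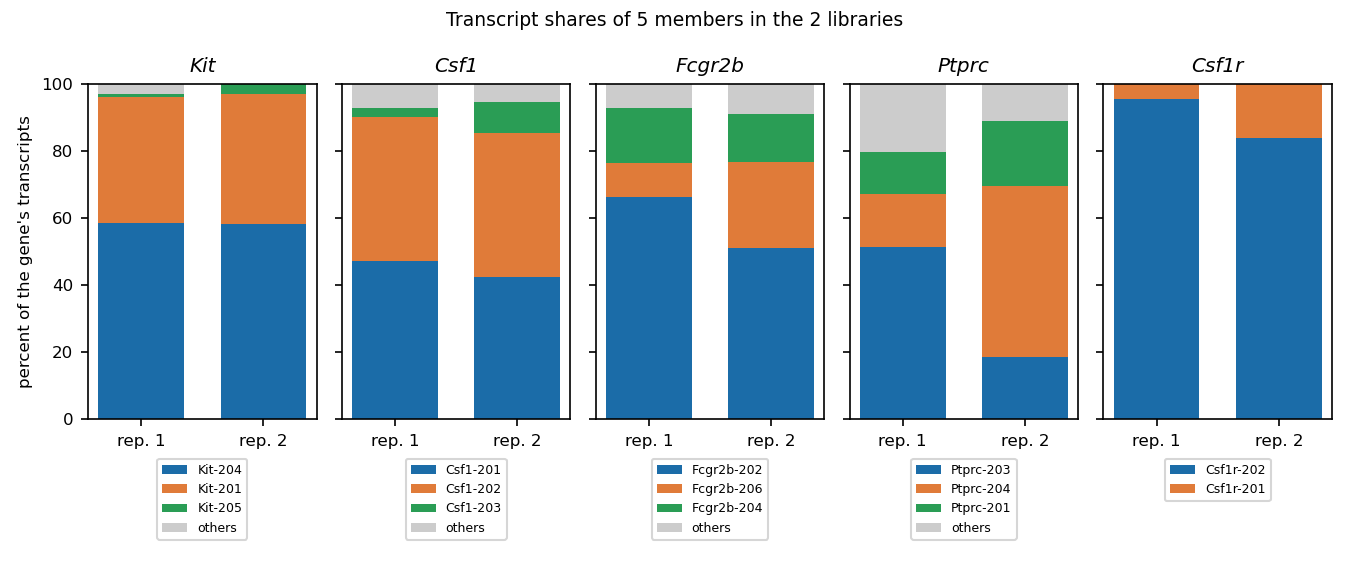
Share of each transcript in its gene, in percent, for Kit, Csf1, Fcgr2b, Ptprc and Csf1r, with replicate 1 left of replicate 2 and grey for all other transcripts. The bars of Kit and Csf1 look alike in both libraries, and those of Ptprc do not, with Ptprc-203 at 51.33% and 18.64%.

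PU.1, the product of Spi1, binds DNA at sites with the core GAGGAA, and the promoter windows of the members were searched for it on both strands. RefSeq windows of 300 bases (250 before to 50 after the start, GRCm38.p6) were at hand for 36 of the 45 members, 43 windows in all. The core, as GAGGAA or TTCCTC, was in 22 of the 43 (51.2%), against 9289 of 32851 windows of all genes (28.3%). Some members, such as Kit, Ly6c2 and Fcgr3, have overlapping windows that hold the same core, so genes were also counted once each. By gene the core was in 19 of 36 members (52.8%), against 8446 of 27025 genes (31.3%), and in 9 of 18 macrophage, 4 of 6 monocyte and neutrophil, 1 of 3 mast cell and 2 of 5 lymphoid genes. A match is a stretch of letters and not a measured binding site. Mrc1 had the most cores, 3, and the windows of S100a8 and S100a9, which moved together between the pools, held 2 and 0. They are printed with the cores in capitals. The S100a8 window is set on a RefSeq start that lies 93 bases from the nearest start in the annotation used for coordinates.
Mrc1 (chr2:14229164-14229463, plus strand): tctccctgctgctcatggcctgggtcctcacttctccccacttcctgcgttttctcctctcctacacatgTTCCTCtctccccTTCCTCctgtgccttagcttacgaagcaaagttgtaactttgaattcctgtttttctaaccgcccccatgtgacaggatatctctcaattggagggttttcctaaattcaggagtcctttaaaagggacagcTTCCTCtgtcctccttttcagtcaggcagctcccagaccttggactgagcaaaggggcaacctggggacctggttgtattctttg
S100a8 (chr3:90668821-90669120, plus strand): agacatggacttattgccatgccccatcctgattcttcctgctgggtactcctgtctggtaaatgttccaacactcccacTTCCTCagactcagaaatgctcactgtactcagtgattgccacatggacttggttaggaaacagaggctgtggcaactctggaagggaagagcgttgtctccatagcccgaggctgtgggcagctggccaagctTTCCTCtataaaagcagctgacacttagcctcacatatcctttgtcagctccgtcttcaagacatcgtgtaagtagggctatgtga
S100a9 (chr3:90695672-90695971, minus strand): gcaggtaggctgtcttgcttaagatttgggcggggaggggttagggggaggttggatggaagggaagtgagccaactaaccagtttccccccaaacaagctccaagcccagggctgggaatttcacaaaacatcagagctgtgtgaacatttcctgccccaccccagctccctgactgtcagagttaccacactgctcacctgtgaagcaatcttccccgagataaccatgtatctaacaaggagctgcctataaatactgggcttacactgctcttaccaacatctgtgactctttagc

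The S100a8 and S100a9 windows are 51.0% identical over their alignment, and the S100a8 gene lies at chr3:90668978-90670035 and S100a9 at chr3:90692632-90695721, on opposite strands of the same chromosome. Relative to the start, the cores of Mrc1 begin at bases -180, -167 and -35 and those of S100a8 at -170 and -36. The windows of Lyz2 and Lyz1 are 81.9% identical over their alignment.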

How the data were processed

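From 2 pools of kidneys, RNA was prepared with mirVana reagents and kept above 200 nt, 10 ng went into each library, and a SMARTer Ultra Low kit manual is among the protocols, per the labels. Values refer to mm10 and annotation M4, per the deposited text notes; the sources used here do not give aligner, quantifier or strandedness. The authors deposited estimated counts (expected counts), which need not be whole because shared reads are divided between genes. They were not whole for 8 members (Csf1r, Fcgr2b, Fcgr3, Maf, Lyz1, Lyz2, Ccr2 and Ly6c2). The deposited TPM is scaled to length and to 1 sum per library, spike-ins included, and the deposited FPKM to length and library size. The deposited percent is a transcript's share of its gene, and the deposited TPM bounds are a signal that is never negative. The spike-in share of counts was 2.82% (replicate 1) and 2.08% (replicate 2).

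Coordinates, transcript types and coding lengths (stop codon left out) come from GENCODE M21 on GRCm38, matched by identifier for 42462 of 43346 mouse genes. Exons of 8 members overlap a gene on the opposite strand (Csf1r, Cx3cr1, Fcgr2b, Maf, Folr2, Il34, Mpo and Cd3e), so their values are uncertain. Group differences used log2(TPM + 0.1), which understates differences near 0. Pool ratios used counts rounded to whole numbers, TMM in edgeR 4.0.16 (R 4.3.3), a prior count of 2 for log2 ratios and a mean of at least 1 CPM. Intervals are exact conditional binomial ones at 95%, and floors are 3 counts per library; both cover counting error only. DESeq2 1.42.0 size factors were an alternative. Other steps used Python 3.11.15, numpy 2.4.6, pandas 2.3.3, scipy 1.17.1 and matplotlib 3.10.9.

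The members, groups and further lists were chosen with earlier results of these data known. All members are named, and from each further list the 3 highest, genes with 0 counts in both libraries where a statement turns on them, and exceptions marked as such. A gene that this rule takes is not reported here. With 1 group of 2 libraries, no statistical test was made. Alternatives covered detection thresholds and units, the pseudocount, filters, scaling and leaving out a library.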

Additional observations from a re-analysis of the deposited data

How the results depend on the processing

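Of 159 recalculated values, 90 kept to the main value, 68 moved and 1 changed sign. Kept means within 1.5 times for a count and within the SD of the 2 libraries for a level or group difference. For the median pool ratio it means within the SD of the members' own ratios. Where the SD of the libraries was 0, as for the lymphoid median, any change counts as moved. Levels and differences with 1 library left out are part of that same spread, so their labels say little. No paired analysis was possible because the samples form 1 group. Detected members came to 18 of 45 at 5 TPM, with 11 in the macrophage, 1 in the leukocyte-wide, 1 in the mast cell and 1 in the lymphoid group, and the last 2 also had 1 each at 2 TPM. The monocyte and neutrophil group had 6 at 0.5 TPM and at 10 counts, 5 by posterior mean TPM, and 3 to 5 with either library alone, and the lymphoid group had 1 at 1 FPKM. In the order leukocyte-wide, macrophage, ligand, monocyte and neutrophil, mast cell, lymphoid, medians in FPKM were 7.73, 3.07, 4.94, 0.835, 1.23 and 0.1. By posterior mean TPM the last 4 groups of that order were 8.20, 1.5, 2.16 and 0.480 TPM. With TPM over mouse genes alone, ligands were 8.06, mast cell 2.02 and lymphoid genes 0.170 TPM. Means of log2 gave 9.30 (leukocyte-wide), 5.95 (ligand), 2.49 (monocyte and neutrophil), 1.6 (mast cell) and 0.377 TPM (lymphoid). With 1 library left out, medians were 0.220 TPM (lymphoid) and 1.27 to 1.39 TPM (monocyte and neutrophil).

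Differences from the macrophage group, in the order leukocyte-wide, ligand, monocyte and neutrophil, mast cell, lymphoid, were 1.09, 0.45, -0.77, -1.38 and -3.21 with means of log2, 1.11, 0.82, -1.56, -1.06 and -3.02 with posterior mean TPM, and 1.19, 0.91, -1.58, -2.91 and -3.98 without Kit, Maf, Lyz1 and Cd68. They were 0.41, 0.12, 0.54, -0.31 and -1.15 with members of at least 1 TPM only, where few members remain and the sign of the monocyte and neutrophil group turned. A pseudocount of 1 TPM gave 0.89 (leukocyte-wide), -1.32 (monocyte and neutrophil), -0.97 (mast cell) and -2.29 (lymphoid), and 0.01 TPM gave 0.99 (leukocyte-wide) and -4.78 (lymphoid). FPKM gave 0.97 (leukocyte-wide) and -3.97 (lymphoid), and leaving out 1 library gave 0.97 and -3.99 to -3.82. Members over 2-fold apart between the pools numbered 2 of 34 with spike-in scaling, against 3.07% of all genes. That scaling moved the median of all genes to -0.43 and of the members to -0.49. With no filter they numbered 2 of 45, against 5.82% of all genes. With a mean of at least 10 counts they numbered 1 of 39, against 4.76%. At a limit of 1.5-fold, 3 of 34 members were apart, against 5.81%. The causes of these shifts were not tested. At this depth, values under about 0.1 TPM rest on a few counts.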

Other observations

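Of 7 genes enriched in the macrophages of the brain (microglia) 3 were detected: Olfml3 at 61.4 ± 2.57 TPM, Tmem119 at 40.6 ± 4.03 TPM and Sall1, which nephron progenitors also transcribe, at 34.5 ± 2.69 TPM (SD, n = 2). The other 4, named after their values were seen, were under 1 TPM in both libraries. Gpr34 averaged 0.895 TPM, P2ry12 0.725 TPM, P2ry13 0.585 TPM and Siglech 0.215 TPM. The list thus did not share 1 level, and its 3 detected genes lay above Csf1r, which averaged 12.5 TPM. Which cells of the kidney carry Olfml3 and Tmem119 was not tested. Antigen presentation genes were mostly present, with 5 of 6 detected and a median of 6.02 TPM. H2-Ab1, a chain of the class II complex, had 25.68 TPM in replicate 1 and 31.56 TPM in replicate 2, H2-DMa, which helps to load it, had 10.21 and 9.85 TPM, and the invariant chain Cd74 had 6.02 and 8.04 TPM. Of 7 dendritic cell genes only Zbtb46 (23.5 ± 2.11 TPM), which endothelium also carries, and Batf3 (11.6 ± 0.445 TPM) were detected, and Cd209a had 0 counts in both libraries. None of 5 eosinophil genes was detected, and Ear1 had 0 counts in both.

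Ligands and receptors beyond those described above were unequal. Of 17 further ligand genes 10 were detected, led by the chemokine Cxcl12 at 130 ± 8.09 TPM, the "do not eat me" signal Cd47 at 64.1 ± 5.47 TPM and Gas6, a ligand of the phagocyte receptor Mertk, at 60.2 ± 5.14 TPM. Of 11 receptors 4 were detected, and the highest were Csf2ra at 20.5 ± 2.52 TPM, Cxcr4 at 7.26 ± 0.0919 TPM and Il3ra at 4.38 ± 0.0919 TPM. Kitl, the ligand of Kit and chosen after its values were seen, had 18.61 TPM in replicate 1 and 16.13 TPM in replicate 2, so that the ratio of Kitl to Kit was 1.07 ± 0.171. Of 8 stem and progenitor genes 4 were detected, led by Cd34, which vessels also carry, at 91.3 ± 6.34 TPM, with Myb at 3.60 ± 0.849 TPM and Hlf at 2.06 ± 0.304 TPM, and Gfi1 had 0 counts in both libraries.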
